A study of Mus musculus with 8 samples.

Results

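Myotubes are the multinucleated cells that muscle precursors form by fusion, and Egr3, a transcription factor with zinc fingers, is needed for the stretch-sensing spindles of muscle. The genes described here had a higher signal in myotube RNA labelled truncated Egr-3 than in RNA labelled wildtype, and a higher signal in RNA276 than in RNA275. They were chosen by these measured values. Signals were raised to a floor of 70 on array type A and 110 on array type B. A probe set with 1 gene symbol was then kept where the truncated-Egr3 RNA read at least 1.5 times the wildtype RNA and RNA276 at least 1.5 times RNA275. Each gene is represented by its brightest such probe set, taken from type A where one qualified there. The rule found 153 genes (87 by type A, 66 by type B) among 18194 genes on the arrays and 11832 with a probe set above the floor in at least 1 RNA.

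The series holds 4 total RNAs of mouse primary myotubes, each hybridised to 1 oligonucleotide array of each of 2 types, which gives 8 samples. The truncated-Egr3 RNA and the wildtype RNA are both labelled as grown, with no further agent or time. RNA276 has no treatment in its labels. RNA275 has an acclimatization treatment and no Egr3 status, so neither was put in a group with the labelled RNAs. How the truncated Egr-3 was made or brought into the cells, the strain, the age and the number of cultures behind each RNA are unstated in the labels. With 1 RNA per label there are no replicates, so no p-value is given, and every ratio describes these RNAs alone. In RNA from a whole culture, fewer cells of a type and less RNA per cell cannot be told apart.

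Muscle differentiation runs on the MyoD family (Myf5, Myod1, Myog and Myf6), which binds E-box sequences and works with MEF2 proteins to switch on the contractile genes. Class IIa histone deacetylases hold MEF2 back. When oxygen is short, the HIF transcription factors switch on a separate set of genes for lactate export, collagen modification and mitochondrial removal. Cells that secrete much matrix also depend on folding, disposal and glycosylation machinery in the endoplasmic reticulum and Golgi. Genes of all these systems were among the 153, but 87 of the 153 were placed in none of the 9 function groups used below. These groups were put together after the values were seen. How many of all genes belong to each was not counted, so the sizes of the groups are counts only.

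Among 19878 probe sets above the floor in at least 1 RNA, 4.53% read at least 1.5 times higher in the truncated-Egr3 RNA than in the wildtype RNA. The share at least 1.5 times higher in RNA276 than in RNA275 was 9.04%, and 0.835% of the probe sets met both conditions, which are the 166 probe sets behind the members. As genes, the members made up 1.29% of those above the floor. Of the 900 probe sets higher in the truncated-Egr3 RNA, 18.4% were also higher in RNA276, and 13.1% were lower there. Of the 776 probe sets lower in the truncated-Egr3 RNA, 18.2% were higher in RNA276. A probe set that differed between the labelled RNAs was therefore higher in RNA276 about as often whichever way it differed. It was not lower in RNA276 equally often. That held for 118 of the 900 higher in the truncated-Egr3 RNA and for 289 of the 776 lower in it. Across the same probe sets the log2 ratios of the pairs had a Pearson correlation of 0.111, a description across probe sets that share their arrays. The other combinations held 118 probe sets (higher in truncated Egr3, lower in RNA276), 141 (lower, then higher) and 289 (lower in both). The plot of both log2 ratios shows the members as the upper right corner of 1 broad cloud.

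**Figure D1:**
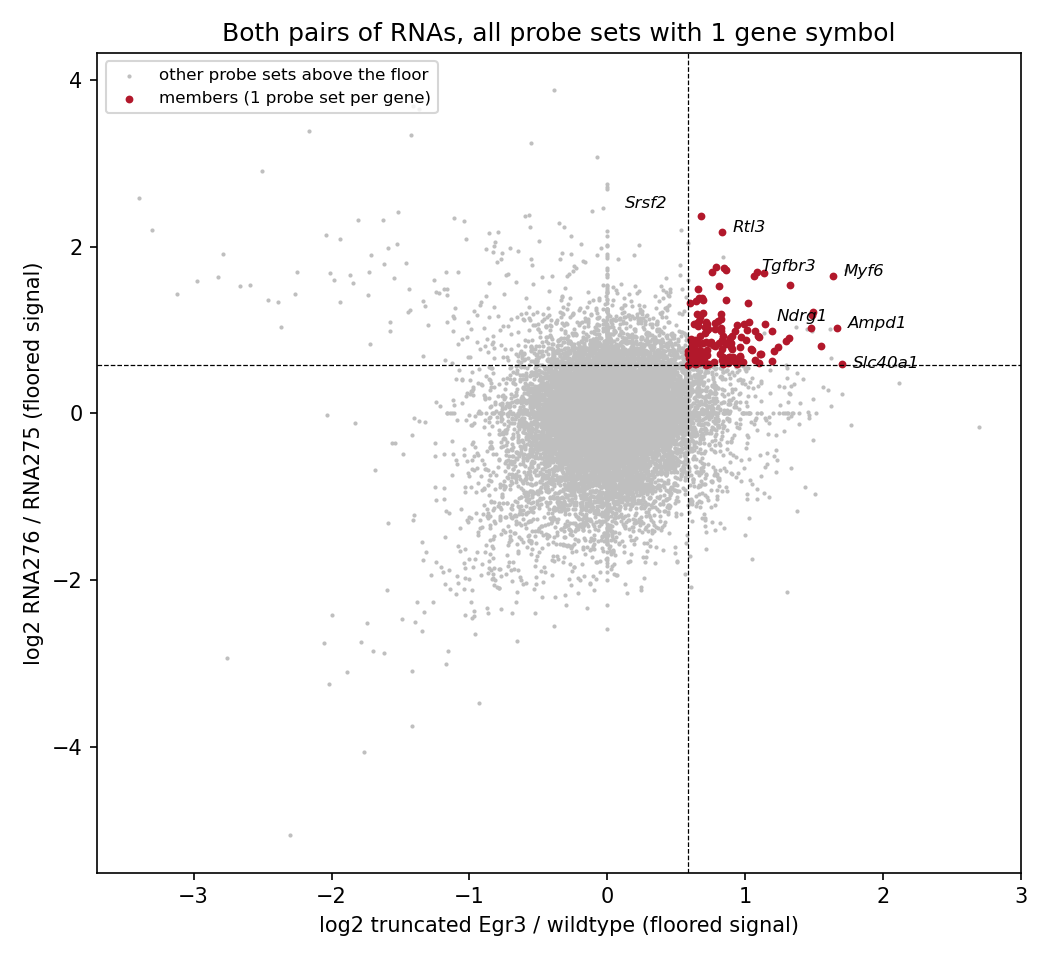
Each point is a probe set above the floor in at least 1 RNA, with the log2 ratio of truncated Egr3 over wildtype on the horizontal axis and of RNA276 over RNA275 on the vertical axis, both from floored signals. Red points are the 153 members, dashed lines mark the ratio of 1.5, and the members lie at the edge of the cloud with Myf6 farthest from both lines.

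Many members lay near the threshold. The ratio of truncated Egr3 to wildtype ran from 1.5 to 3.25 with a median of 1.72, and that of RNA276 to RNA275 from 1.5 to at least 5.15 with a median of 1.79. In 70 members the smaller ratio was under 1.6, and 12 members reached 2 in both pairs. For 29 members at least 1 ratio is a lower bound, because the dimmer RNA was at or under the floor. Just inside the threshold were Aqp12 (1.5007 for truncated Egr3 over wildtype and 1.5004 for RNA276 over RNA275), Mef2d (1.6393 and 1.5004) and Fads3 (1.5024 and 1.6796). Just outside it were Fam13a (1.4999 and 1.5057), Cavin2 (1.4999 and 3.0236) and Tgfbi by a type A probe set (2.4581 and 1.4993). Between 1.4 and 1.5 lay the smaller ratios of 130 genes outside the group. The only measure of technical error came from 96 probe sets that both array types carry. Between the types, their single log2 ratios had an SD of 0.172 for truncated Egr3 over wildtype and 0.149 for RNA276 over RNA275, against a threshold of 0.585 in log2. The SD leaves out a mean offset of type A minus type B, which was -0.139 for truncated Egr3 over wildtype and -0.043 for RNA276 over RNA275. This technical error holds no spread between cultures, and it comes from brighter probe sets, with a median signal of 330.4 on type A.

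The muscle transcription factor Myf6 stood highest by the smaller of its ratios. Myf6, the MyoD family member of mature fibres, read 229 in the truncated-Egr3 RNA, 73.7 in the wildtype RNA, 220.3 in RNA276 and 65 in RNA275. Both higher RNAs were close to each other, both lower ones lay at the floor or just above it, and the ratios were 3.10 and at least 3.15. Myf6 has no other measured probe set here. Its relatives did not share the pattern. Myod1 was lower in the truncated-Egr3 RNA (879 against 1150.0) and higher in RNA276 (1247 against 805), and Myog likewise, at 1470.1 against 1877 and at 2154 against 1585.

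The partners of MEF2 were also among the members. Mamstr, a coactivator of MEF2 in skeletal muscle, read 236 in the truncated-Egr3 RNA, 101 in the wildtype RNA, 245 in RNA276 and 129.6 in RNA275. Its ratios were at least 2.15 and 1.89, and its other probe set was higher in both pairs as well, at 1.29 and 1.39. Hdac4 and Hdac7, class IIa deacetylases that repress MEF2, had ratios of 1.55 and 1.63 for truncated Egr3 over wildtype and of 1.55 and 1.64 for RNA276 over RNA275. All 3 other probe sets of these deacetylase genes were higher in both pairs. Mef2d, itself a MEF2 protein, read 2152 in the truncated-Egr3 RNA, 1313 in the wildtype RNA, 2032 in RNA276 and 1354 in RNA275 by its type B probe set. On type A, 1 Mef2d probe set ran the same way (1.54 and 1.27) and the other ran against it (0.75 and 0.74), so the Mef2d probe sets disagree on the direction. Thra, a thyroid hormone receptor that tunes muscle gene expression, read 368 in the truncated-Egr3 RNA, 182 in the wildtype RNA, 444 in RNA276 and 222 in RNA275. Its other probe set was higher in both pairs too (1.66 and 1.15). Tbx15, a T-box factor of fast glycolytic fibres, had ratios of 1.62 and 2.58, while its other probe set gave 0.99 and 1.81.

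Contractile and muscle enzyme genes formed a group of 9. Csrp3, a LIM protein of the Z-disc, read 689 in the truncated-Egr3 RNA, 394 in the wildtype RNA, 829 in RNA276 and 386 in RNA275. Its higher values were in the truncated-Egr3 RNA and RNA276, and the lower ones were close to each other. Ampd1, the AMP deaminase of skeletal muscle, read 349.8 in the truncated-Egr3 RNA, 94.5 in the wildtype RNA, 542 in RNA276 and 265 in RNA275, with ratios of at least 3.18 and 2.04. Lmod2, which extends actin filaments in the sarcomere, read 220.1 in the truncated-Egr3 RNA, 139 in the wildtype RNA, 232 in RNA276 and 108 in RNA275. The wildtype RNA and RNA275 were again below the others for Lmod2, by ratios of 1.58 and 2.15. Ldb3, which holds the Z-disc together, had ratios of 1.58 and 1.79. One of its other probe sets gave 1.36 and 1.69 and the other 1.05 and 0.93. Myom1, a crosslinker of the M band, read 135 in the truncated-Egr3 RNA, 87.6 in the wildtype RNA, 149 in RNA276 and 86.3 in RNA275, with both lower RNAs little above the floor. Mss51, a mitochondrial protein of skeletal muscle, had ratios of 1.59 and 2.23, Lmcd1, a LIM protein, of 1.78 and 2.29, Fhl1, another LIM protein of muscle, of 1.57 and at least 1.68, and Slc8a3, a sodium-calcium exchanger, of at least 2.31 and at least 1.68.

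In a list of 52 sarcomere and excitation-contraction genes on the arrays, 3 (5.77%) were members (Ampd1, Ldb3 and Myom1), against 0.841% of all genes on the arrays, many of which are under the floor. Of its 51 genes above the floor by their brightest probe set, taken from type A first, 6 were at least 1.5 times higher in truncated Egr3 and none was as far below, against 481 higher (4.34%) and 461 lower (4.16%) of 11076 genes taken the same way. In RNA276, 5 were higher and 8 lower than in RNA275, against 1028 (9.28%) and 1356 (12.2%) overall. The list medians in log2 were -0.15 and 0.09, where all genes had 0.00 and 0.01. Counts for this list and the later ones include the members on them, so the rule fixes part of such counts. Of 23 myogenic regulators on the arrays, Csrp3, Mef2d and Myf6 (13%) were members. Their list medians were -0.35 and 0.02, so in the truncated-Egr3 RNA the list lay lower while these 3 were chosen for lying higher. Mef2d was chosen by its type B probe set. The list medians take it by a type A probe set, with log2 ratios of -0.42 and -0.43.

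Promoter sequence was read from RefSeq (GRCm38.p6) for 123 of the 153 members, from 250 bases before to 50 after each listed start. A gene was counted when any of its listed promoters held the motif on either strand. Shares of all promoters count each listed promoter singly, so they are not on the same scale as shares of genes. The E-box form CAGCTG, which MyoD proteins favour, was in 22% of the members with a promoter (27 genes), in 18.4% of 9535 genes above the floor and in 16.3% of all 32851 promoters listed. The MEF2 forms CTAAAAATA and CTATTTATA were in 1 member (Bri3), or 0.813%, against 0.808% of genes above the floor. The only muscle members with an E-box of this form were Lmod2, Mamstr, Lmcd1, Hdac7 and Slc8a3. The other muscle members lacked it or had no listed promoter, and their share was not compared with that of all genes. The Lmod2 promoter (chr6:24597521-24597820, plus strand) and the Mamstr promoter (chr7:45639727-45640026, plus strand) are shown as muscle members that hold it, with CAGCTG in capitals.
Lmod2: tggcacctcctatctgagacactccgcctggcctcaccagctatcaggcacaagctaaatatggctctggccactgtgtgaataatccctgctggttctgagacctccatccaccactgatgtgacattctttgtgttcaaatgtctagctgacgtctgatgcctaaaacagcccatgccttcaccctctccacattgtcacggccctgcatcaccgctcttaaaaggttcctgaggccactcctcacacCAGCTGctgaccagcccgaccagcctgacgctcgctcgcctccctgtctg
Mamstr: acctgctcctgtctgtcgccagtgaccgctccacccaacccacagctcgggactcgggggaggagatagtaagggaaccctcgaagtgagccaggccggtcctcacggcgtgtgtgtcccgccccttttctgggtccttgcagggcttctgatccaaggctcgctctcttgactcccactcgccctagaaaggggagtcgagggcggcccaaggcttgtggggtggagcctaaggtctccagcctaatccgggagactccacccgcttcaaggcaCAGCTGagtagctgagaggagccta
In both the match lies at or after the listed start, within the last 50 bases of the window. A match says that the letters are there and nothing about binding.

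**Figure D2:**
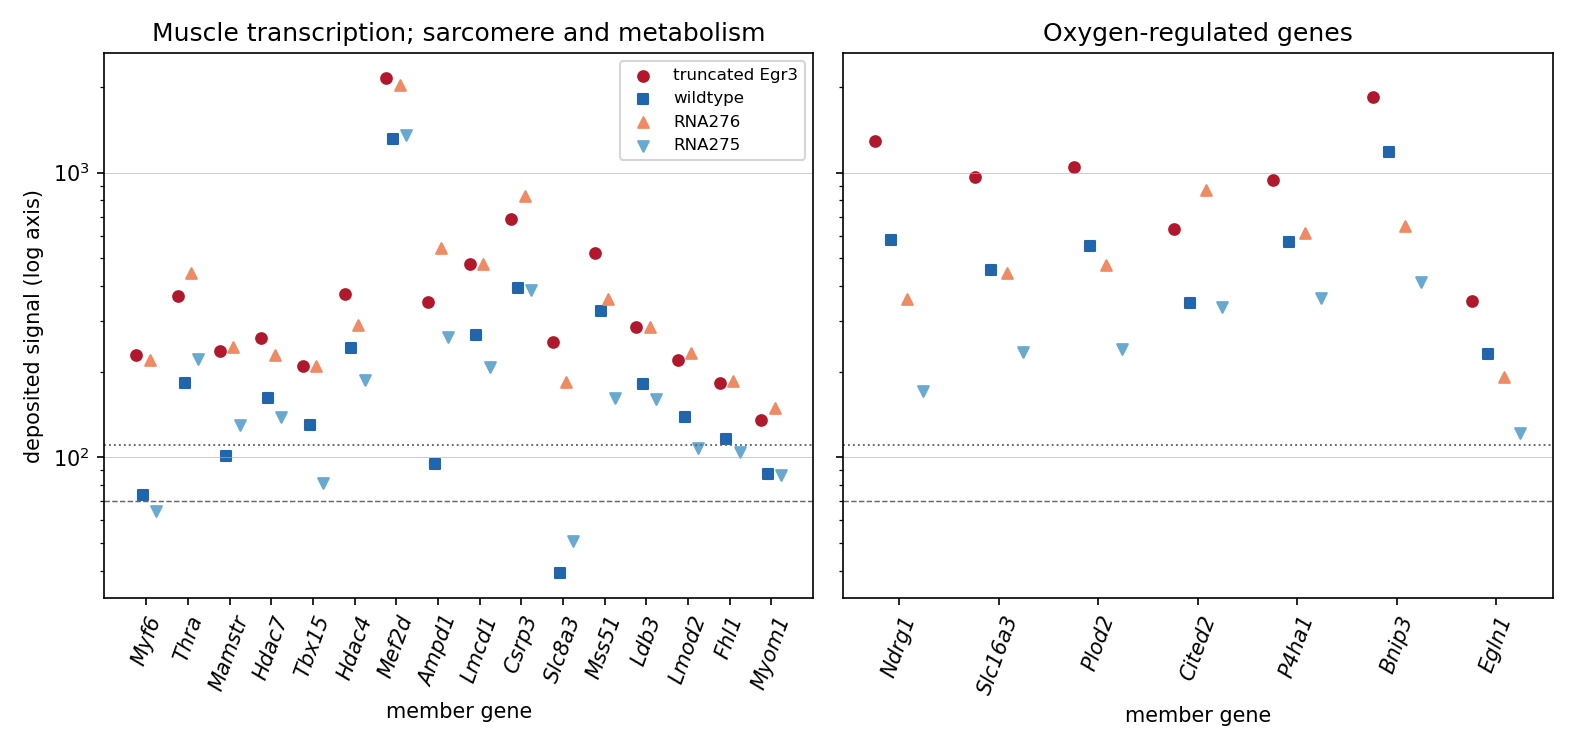
Deposited signals of the 16 muscle members (left) and the 7 oxygen-regulated members (right) in the 4 RNAs on a log axis, with the floors of 70 (dashed, type A) and 110 (dotted, type B). In the muscle members the truncated-Egr3 RNA and RNA276 lie above the wildtype RNA and RNA275, while Ndrg1, Plod2, Slc16a3, Bnip3 and Egln1 read higher in the wildtype RNA than in RNA276.

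Among the oxygen-regulated genes, all 5 with another measured probe set had every such probe set higher in both pairs. Over all members this held for 45 of 95 such genes, and the group was put together after the values were seen. Ndrg1, a stress and hypoxia-responsive gene, read 1288 in the truncated-Egr3 RNA, 581 in the wildtype RNA, 358 in RNA276 and 170.3 in RNA275. The ratios were 2.22 and 2.10. The order of the 4 RNAs differed from that of Myf6, because the wildtype RNA was above RNA276. The other 4 Ndrg1 probe sets gave ratios between 2.74 and 3.33 for truncated Egr3 over wildtype and between 1.98 and 3.30 for RNA276 over RNA275, all 4 with an RNA275 signal between 49.8 and 86.6. The lowest of these signals were under the floor, so 2 of the 4 RNA276 ratios are lower bounds. Slc16a3, the lactate exporter, read 968 in the truncated-Egr3 RNA, 453 in the wildtype RNA, 444 in RNA276 and 234 in RNA275. Plod2, a lysyl hydroxylase of collagen, read 1048 in the truncated-Egr3 RNA, 553 in the wildtype RNA, 475 in RNA276 and 239 in RNA275, and its other probe set gave 2.64 and 1.09. Bnip3, a receptor for the removal of mitochondria, read 1849.5 in the truncated-Egr3 RNA, 1179 in the wildtype RNA, 651 in RNA276 and 411 in RNA275. In these 3 genes too the truncated-Egr3 RNA was highest and RNA275 lowest. P4ha1, a prolyl hydroxylase of collagen, had ratios of 1.65 and 1.70, and Egln1, the oxygen sensor that marks HIF for destruction, of 1.54 and 1.56. Their other probe sets were higher in both pairs, at 1.18 and 2.21 for P4ha1 and at 1.95 and 1.19 for Egln1. Cited2, which limits HIF activity, differed from the rest of the group in that RNA276 was its highest RNA, with 634 in the truncated-Egr3 RNA, 349 in the wildtype RNA, 869.5 in RNA276 and 338 in RNA275. Its second probe set gave 1.79 and 3.68.

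The hypoxia list held 4 members among 16 genes on the arrays (25%), against 0.841% of all genes. A gene under the floor cannot be a member, and of all genes with a probe set above the floor 1.29% were members. Of 15 hypoxia-responsive genes above the floor by their brightest probe set, 10 were at least 1.5 times higher in truncated Egr3 and none was as far below, where 4.34% and 4.16% of all genes were. In RNA276, 3 were that much higher than in RNA275 and 1 was as far below, where 9.28% and 12.2% of all genes were. Those 3 were the members Bnip3, Ndrg1 and P4ha1, and all 4 members were among the 10. The rule thus fixes part of both counts. In log2 the median of the list was 0.65 for truncated Egr3 over wildtype and 0.00 for RNA276 over RNA275. Ankrd37 had log2 ratios of 1.31 and 0.55, the vessel growth factor Vegfa 0.79 and -0.25, Hif1a itself 0.61 and -0.27, and Mxi1, an antagonist of Myc, 0.67 and -0.87. The 4 members on this list (Bnip3, Egln1, Ndrg1 and P4ha1) met the rule in both pairs, Egln1 by a probe set that is not its brightest. With 1 RNA per label the difference between the pairs could not be tested.

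**Figure D3:**
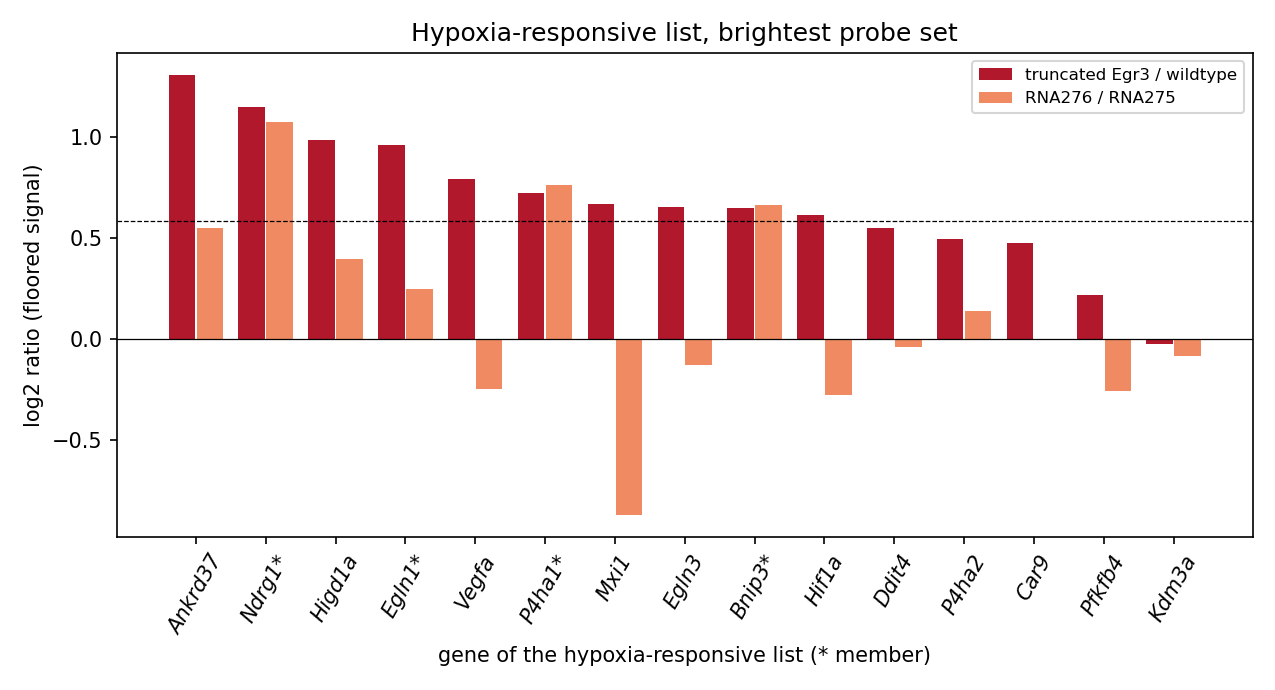
Log2 ratios of the 15 hypoxia-responsive genes above the floor, by their brightest probe set, for truncated Egr3 over wildtype (dark red) and RNA276 over RNA275 (orange). Asterisks mark the 4 members, and the dashed line marks the ratio of 1.5. It is reached by 10 dark red bars and by 3 orange bars, those of the members Bnip3, Ndrg1 and P4ha1.

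The core of the hypoxia response element, ACGTG, was in 33.3% of the members with a promoter (41 genes) and in 29.2% of genes above the floor. Of all promoters, counted singly, 19.6% held it. All 5 oxygen-regulated members with a listed promoter (Bnip3, Egln1, P4ha1, Slc16a3 and Cited2) held it, and the promoters of Ndrg1 and Plod2 were not searched. Shown with ACGTG, or its reverse complement CACGT, in capitals are Bnip3 (chr7:138909457-138909756, minus strand), Egln1 (chr8:124949205-124949504, minus strand) and P4ha1 (chr10:59323046-59323345, plus strand), each written along the strand of its gene.
Bnip3: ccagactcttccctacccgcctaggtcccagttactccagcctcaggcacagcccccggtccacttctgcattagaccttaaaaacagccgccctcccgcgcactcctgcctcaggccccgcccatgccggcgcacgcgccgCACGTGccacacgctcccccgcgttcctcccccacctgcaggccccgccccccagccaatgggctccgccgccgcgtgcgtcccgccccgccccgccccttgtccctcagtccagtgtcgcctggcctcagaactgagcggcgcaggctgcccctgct
Egln1: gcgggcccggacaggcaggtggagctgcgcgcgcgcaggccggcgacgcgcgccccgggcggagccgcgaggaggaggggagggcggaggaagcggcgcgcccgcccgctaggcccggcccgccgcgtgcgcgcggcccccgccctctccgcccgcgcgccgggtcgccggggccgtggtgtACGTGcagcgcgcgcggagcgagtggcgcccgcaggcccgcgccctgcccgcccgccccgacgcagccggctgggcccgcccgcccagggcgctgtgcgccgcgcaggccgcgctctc
P4ha1: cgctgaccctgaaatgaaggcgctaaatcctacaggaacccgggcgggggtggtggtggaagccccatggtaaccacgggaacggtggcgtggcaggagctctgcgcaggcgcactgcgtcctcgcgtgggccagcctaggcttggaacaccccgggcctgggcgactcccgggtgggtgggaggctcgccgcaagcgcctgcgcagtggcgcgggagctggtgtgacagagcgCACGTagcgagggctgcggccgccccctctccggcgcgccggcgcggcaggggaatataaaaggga
The Bnip3 match reads the same on both strands. None of the motifs searched overlapped another in any member promoter.

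Genes for the disposal of misfolded proteins were among the members. Edem1, which hands misfolded glycoproteins to degradation, read 268 in the truncated-Egr3 RNA, 150.2 in the wildtype RNA, 193 in RNA276 and 105 in RNA275. Syvn1, the ubiquitin ligase of that pathway, read 421 in the truncated-Egr3 RNA, 235 in the wildtype RNA, 499 in RNA276 and 313 in RNA275, and Herpud1, which assembles the ligase complex, read 519 in the truncated-Egr3 RNA, 336 in the wildtype RNA, 548 in RNA276 and 346 in RNA275. In all 3 the wildtype RNA and RNA275 were below both other RNAs, and the other probe set of each was higher in both pairs (1.15 and 1.25 for Edem1, 1.28 and 1.17 for Syvn1, 2.01 and 1.42 for Herpud1). Ube2g2, a ubiquitin-conjugating enzyme of the same pathway, had ratios of 1.56 and 1.61, while its other probe set, near the floor, gave 0.962 and 1. Dnajb2, a cochaperone rich in neurons, had 1.72 and 2.12, and Tmbim6, which guards against death from endoplasmic reticulum stress, 1.56 and 1.67. Sec61a1, the protein channel of the endoplasmic reticulum, had 1.53 and 1.59 by the probe set that met the rule, but 3 of its 5 other probe sets were lower in RNA276 than in RNA275.

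Across the list of unfolded protein and integrated stress genes, 3 of 38 were members (7.89%). Of all genes 0.841% were members, and of those with a probe set above the floor 1.29%. Of 37 genes above the floor, 9 were at least 1.5 times higher and 1 was as far below in truncated Egr3, where 4.34% and 4.16% of all genes were. In RNA276, 5 were higher and 5 lower, against 9.28% and 12.2% of all genes. The medians were 0.32 and 0.08 in log2. The chaperone gene Hspa5 had log2 ratios of 0.13 and 0.03, and the stress-induced factor Ddit3 had 2.08 and 0.58. The Ddit3 ratio of RNA276 to RNA275 fell just short of 1.5. Hsp90b1 and Dnajb9, also chaperones, were higher in truncated Egr3 (0.54 and 0.99) and lower in RNA276 (-0.73 and -0.66).

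Genes of glycan synthesis and the Golgi numbered 10, a count with no share of all genes beside it. Ugcg, which makes glucosylceramide, read 361 in the truncated-Egr3 RNA, 188 in the wildtype RNA, 228 in RNA276 and 109.6 in RNA275. Galnt6 and Galnt18, which start mucin-type sugar chains, had ratios of 2.15 and 1.55 for truncated Egr3 over wildtype and of 1.63 and 2.10 for RNA276 over RNA275. Pmm1, a phosphomannomutase, had 1.87 and 1.73, and its other probe set was higher in both pairs (1.35 and 1.59). Alg1, a mannosyltransferase of the lipid-linked precursor, had 1.65 and 1.51. Chst14, a sulfotransferase of dermatan sulfate, had 1.65 and 1.82, and Slc35a2, the UDP-galactose carrier of the Golgi, 1.64 and 1.62. St3gal4, a sialyltransferase, had at least 1.61 and 1.6. Golph3, a Golgi membrane protein, and Use1, a SNARE protein of retrograde transport, had both ratios between 1.51 and 1.6. In all 10 the wildtype RNA and RNA275 were below both other RNAs, as in 140 of the 153 members. Of the 5 with another measured probe set, 2 (Pmm1 and Use1) had all of them higher in both pairs.

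**Figure D4:**
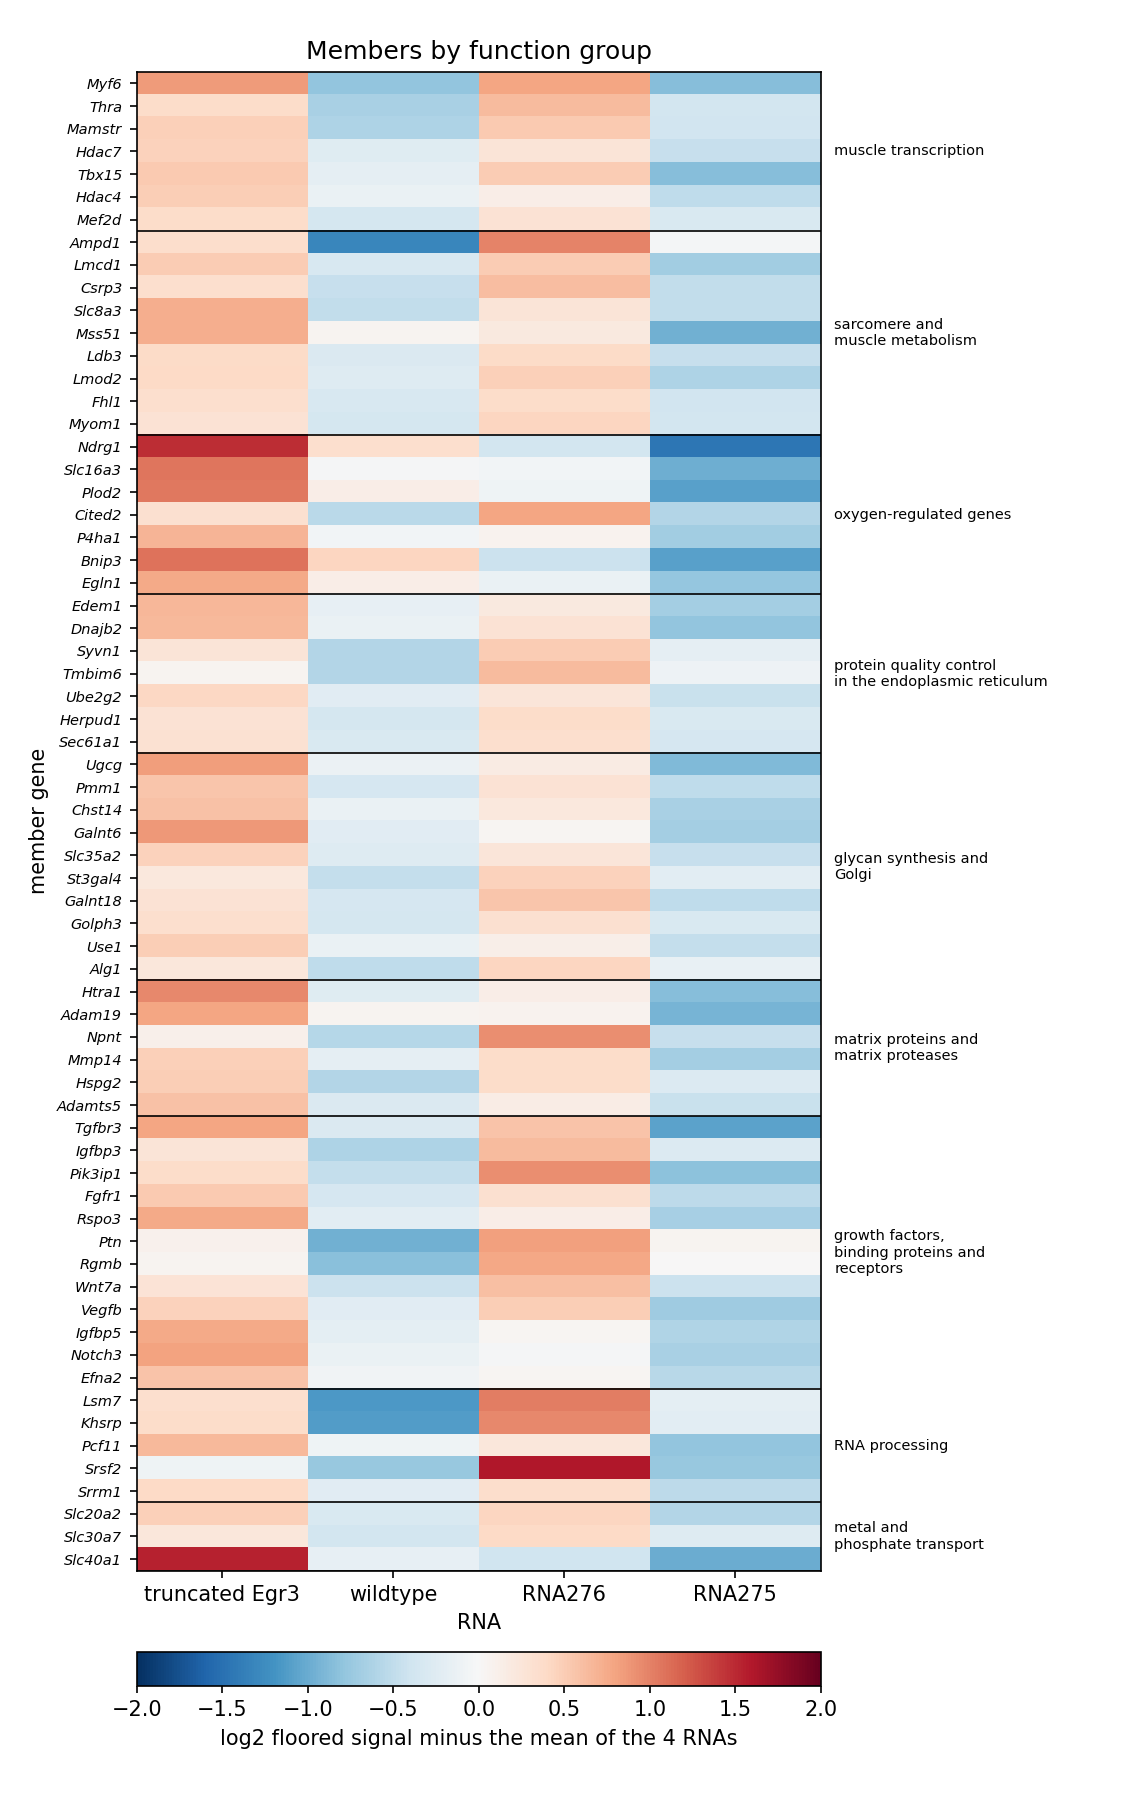
Log2 floored signal of 66 members in the 4 RNAs, minus each gene's mean over the 4, by function group. The truncated-Egr3 RNA and RNA276 are redder than the wildtype RNA and RNA275 by the choice of members, and in Slc40a1 and the oxygen-regulated genes other than Cited2 RNA276 is close to or below the wildtype RNA.

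Matrix proteases and matrix proteins made up 6 members. Mmp14, a membrane metalloproteinase that activates others, read 471 in the truncated-Egr3 RNA, 298 in the wildtype RNA, 435 in RNA276 and 211 in RNA275. Its 2 other probe sets gave 1.95 and 1.49, and 2.20 and 1.95. Htra1, a secreted serine protease, read 475 in the truncated-Egr3 RNA, 208 in the wildtype RNA, 270.4 in RNA276 and 136 in RNA275, and its other probe set gave 1.67 and 1.06. Hspg2, the basement membrane proteoglycan perlecan, had ratios of 2.11 and 1.56. Adam19 and Adamts5, both metalloproteinases, had 1.65 and 1.84 for truncated Egr3 over wildtype, and 2.0 and 1.51 for RNA276 over RNA275. In these 5 genes every other measured probe set was higher in both pairs. The sixth, the integrin ligand Npnt, met the rule by a dim probe set (at least 1.59 and 2.61), while 2 of its other 4 probe sets were lower in both pairs, at 0.915 and 0.905 and at 0.896 and 0.834. In the list of 47 extracellular matrix and fibroblast genes on the arrays, Igfbp5 and Mmp14 were members (4.26%). Of the 41 above the floor, 9 were at least 1.5 times higher in truncated Egr3 and 1 was as far below, against 4.34% and 4.16% of all genes. In RNA276, 5 were higher and 4 lower, near the 9.28% and 12.2% of all genes. Dcn and Tgfbi, a proteoglycan and an adhesion protein of the matrix, had ratios of 2.02 and 4.35 for truncated Egr3 over wildtype by their brightest probe sets, but 0.784 and 1.29 for RNA276 over RNA275.

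Ligands, their binding proteins, receptors and a kinase inhibitor were described as 1 group of 12 signalling members. Igfbp3, which binds insulin-like growth factors, read 4352 in the truncated-Egr3 RNA, 2353 in the wildtype RNA, 5608 in RNA276 and 2992 in RNA275. Igfbp5, the binding protein induced in differentiating muscle, read 869 in the truncated-Egr3 RNA, 449 in the wildtype RNA, 527 in RNA276 and 339 in RNA275. The other probe set of each was higher in both pairs by less, at 1.5 and 1.28 for Igfbp3 and at 1.48 and 1.10 for Igfbp5. Among ligands, Ptn, a heparin-binding growth factor, read 405 in the truncated-Egr3 RNA, 197 in the wildtype RNA, 679 in RNA276 and 398 in RNA275. Of the other Ptn probe sets 1 was higher in both pairs (1.46 and 1.72) and 1 was not (0.895 and 1.20). Rspo3, which amplifies Wnt signals, had ratios of 1.95 and at least 1.74, Wnt7a, a Wnt ligand, 1.63 and 2.05, Vegfb, a VEGF family ligand, 1.62 and 2.30, and Efna2, an ephrin, 1.56 and at least 1.51. Receptors and coreceptors were Tgfbr3 for TGF-beta, Fgfr1 for fibroblast growth factors, Notch3 for Notch ligands and Rgmb for bone morphogenetic proteins. Tgfbr3 read 399 in the truncated-Egr3 RNA, 191 in the wildtype RNA, 346 in RNA276 and 102 in RNA275, the widest separation among them. Fgfr1 had ratios of 1.82 and 1.79, and both of its other probe sets were higher in both pairs. Notch3 had 1.90 and at least 1.53, and Rgmb 1.87 and 1.71, although 2 of the 5 other Rgmb probe sets were lower in truncated Egr3. Pik3ip1, an inhibitor of PI3 kinase, read 402 in the truncated-Egr3 RNA, 224 in the wildtype RNA, 588 in RNA276 and 176 in RNA275, and its other probe set gave 1.46 and 2.81. In the TGF-beta, BMP and Wnt list, Tgfbr3 was the 1 member of 30 genes on the arrays (3.33%).

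The binding sequences of Egr proteins, GCGTGGGCG and GCGGGGGCG, were searched because the series concerns Egr3. They were in 9.76% of the members with a promoter (12 genes) and in 7.6% of genes above the floor. Of all promoters, counted singly, 3.47% held such a sequence. The 12 were Mmp14, Vegfb, Wnt7a, Notch3, Nfic, Sertad4, Dnajb2, Slc30a7, Aldh18a1, Igdcc4, Rnf217 and 1700017B05Rik. Member promoters had a median GC content of 63.3%, and those of genes above the floor 61%. Shown are Mmp14 (chr14:54431348-54431647, plus strand) and Vegfb (chr19:6987602-6987901, minus strand), with the Egr sequence in capitals (its reverse complement in Vegfb), and in Mmp14 also the hypoxia core in its reverse form CACGT.
Mmp14: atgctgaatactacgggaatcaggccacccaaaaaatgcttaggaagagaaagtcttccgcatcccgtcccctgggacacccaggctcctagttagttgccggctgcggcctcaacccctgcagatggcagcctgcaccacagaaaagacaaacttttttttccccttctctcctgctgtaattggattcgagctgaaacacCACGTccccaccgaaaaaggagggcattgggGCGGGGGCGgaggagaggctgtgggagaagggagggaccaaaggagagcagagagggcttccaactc
Vegfb: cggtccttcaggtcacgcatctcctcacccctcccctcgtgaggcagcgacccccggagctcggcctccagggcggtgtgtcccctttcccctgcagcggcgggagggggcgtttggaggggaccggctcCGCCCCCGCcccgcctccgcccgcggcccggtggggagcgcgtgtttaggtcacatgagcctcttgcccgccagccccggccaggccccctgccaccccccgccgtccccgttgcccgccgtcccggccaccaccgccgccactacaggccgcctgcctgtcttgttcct
The share of members with an Egr sequence differed little from that of the genes above the floor, and no test was made.

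RNA-binding and processing genes included some of the largest ratios and the least agreement between probe sets. Lsm7, part of the ring that binds U6 RNA, read 197 in the truncated-Egr3 RNA, 30 in the wildtype RNA, 316 in RNA276 and 136 in RNA275, by its only measured probe set. Khsrp, which promotes the decay of AU-rich messages, read 424 in the truncated-Egr3 RNA, 151 in the wildtype RNA, 642 in RNA276 and 284 in RNA275. Of its other probe sets 1 was higher in both pairs (1.34 and 1.51), and the other was not (0.94 and 1.14). Srsf2, a splicing factor, reached the largest ratio of RNA276 to RNA275 of all members, at least 5.15, with signals of 112 in the truncated-Egr3 RNA, 41.5 in the wildtype RNA, 360.4 in RNA276 and 38.6 in RNA275. Of its 3 other probe sets, 2 were lower in truncated Egr3 (0.78 in both). Srrm1, a splicing coactivator, had ratios of 1.55 and 1.84, and Pcf11, a factor of transcript cleavage, 1.66 and 2.01. In none of the 4 such genes with other probe sets were all of them higher in both pairs.

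Other members had large ratios or carry metals and phosphate. Ninj1, an adhesion protein linked to membrane rupture, had 2.50 and 2.90, and both of its other measured probe sets were higher in both pairs (1.3 and 1.48, and 1.2 and 1.6). Dcxr, a xylulose reductase, had at least 2.20 and 3.20, and Azin2, an activator of polyamine synthesis, 2.12 and 3.25, although 1 of its 2 other probe sets was lower in truncated Egr3 (0.975). Orai3, a store-operated calcium channel, had at least 2.04 and 2.14, Kansl3, part of a histone acetyltransferase complex, 2.03 and 2.51, Acad10, of the acyl-CoA dehydrogenase family, 2.78 and 2.03, and the zinc-finger factor Vezf1 1.99 and 2.10. Slc40a1, the iron exporter, had the largest computed ratio of truncated Egr3 to wildtype among members (bounds taken at their value), with 404 in the truncated-Egr3 RNA, 124 in the wildtype RNA, 106 in RNA276 and 56.8 in RNA275. The wildtype RNA was above RNA276 there, and the other Slc40a1 probe set gave 3.26 and 1.17. Slc20a2, a phosphate carrier, had 1.72 and 2.01, and Slc30a7, a zinc carrier, 1.51 and 1.58. Their other probe sets each ran the other way in 1 pair, with 0.874 and 1.07 for Slc20a2 and 1.27 and 0.526 for Slc30a7. Gsn, the actin-severing protein gelsolin, was 1 of 8 genes with more than 1 probe set past the rule, with 4 of them. Their ratios ran from 1.62 to 3.09 for truncated Egr3 over wildtype and from 1.55 to 1.62 for RNA276 over RNA275. The other 7 were Adam19, Aldh18a1, Cited2, Mmp14, Ndrg1, Nfic and Wipi1, and Ndrg1 had 5. Mcm2, a subunit of the replicative helicase, was the 1 cell cycle gene among the members, with ratios of 1.68 and 1.81, but its other probe set gave 0.80 and 1.64. Wipi1, a protein of autophagosome formation, had 2.29 and at least 1.55, and 1 of its 5 other probe sets was lower in truncated Egr3 (0.969).

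Probe sets that did not represent a member measure the same RNAs, so they describe how far a member rests on 1 probe set. For 95 of the 153 genes at least 1 other probe set was above the floor, 192 probe sets in all. Of these, 109 (56.8%) were higher in both pairs, 13 met the rule and 11 were lower in both. Among 19533 probe sets of genes outside the group, 23.0% were higher in both pairs. Genes outside the group can have no probe set that met the rule, so the rule fixes part of this difference. The medians of the other probe sets were 0.27 and 0.28 in log2, smaller than the 0.585 that the rule asks. In 45 of the 95 genes every other probe set was higher in both pairs, and in 22 none was. Actb, the cytoplasmic actin, is one of these 22. Its member probe set had ratios of 1.69 and 3.24, and its other probe set above the floor gave 0.77 and 1.14. Samhd1, a nucleotide hydrolase of antiviral defence, is a member although 2 of its other probe sets were lower in truncated Egr3, at 0.614 and 3.97 and at 0.679 and 4.70. For 87 members the probe set used is the one that represents the gene when the brightest is taken before the rule. That choice takes type A first, even where its probe sets are under the floor. The other 66 genes are members through a different probe set, which is not always a dimmer one. Tgfbr3 had only a type A probe set under the floor beside it, and the type B probe sets of Igfbp3 and Mef2d were brighter than those of type A.

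**Figure D5:**
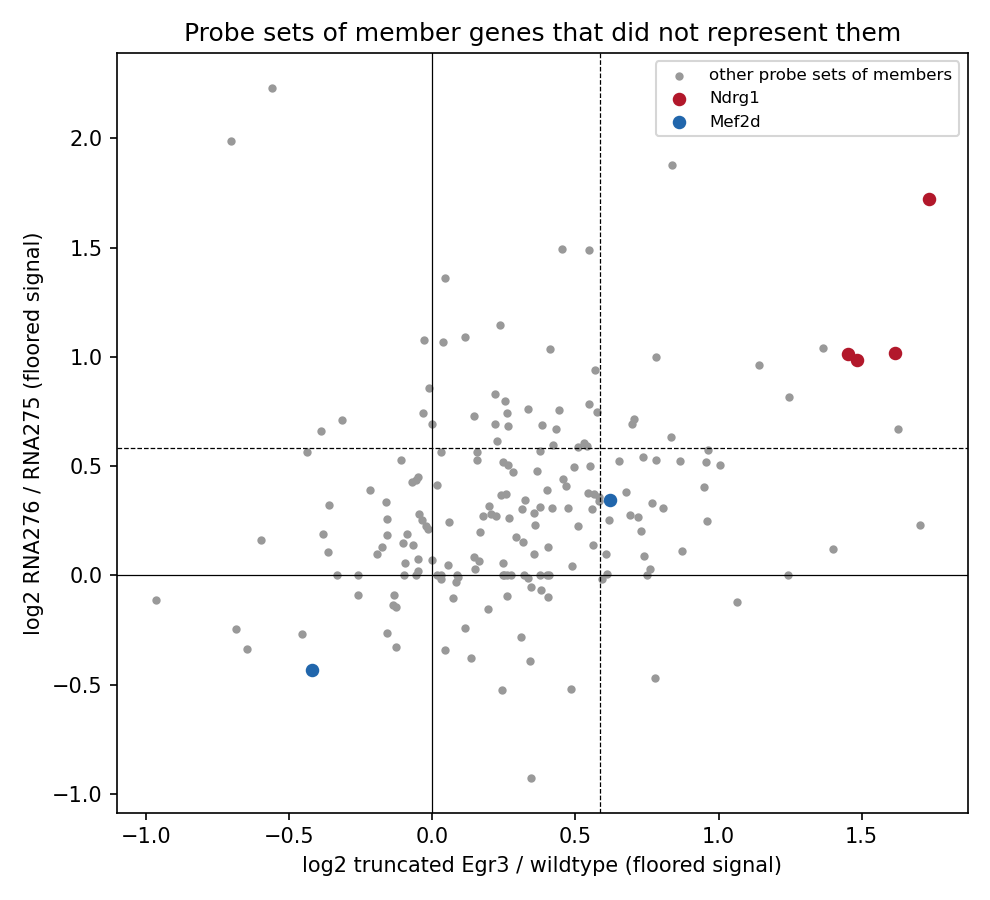
Log2 ratios of the 192 other probe sets of member genes, with truncated Egr3 over wildtype on the horizontal axis and RNA276 over RNA275 on the vertical axis. Solid lines mark no difference and dashed lines the ratio of 1.5. The 4 other Ndrg1 probe sets (red) lie far past both dashed lines, and the Mef2d probe sets (blue) lie on opposite sides of the origin.

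The rule fixes which RNA of each pair is higher, so the order of the 4 RNAs is a description. The truncated-Egr3 RNA and RNA276 were both above the wildtype RNA and RNA275 in 140 of the 153 members, which the choice of members largely sets. The highest RNA was truncated Egr3 in 80 members and RNA276 in 73. The lowest was RNA275 in 90 and the wildtype RNA in 63. The median log2 difference was 0.02 for truncated Egr3 minus RNA276 and 0.12 for wildtype minus RNA275, and it was 0.00 for both over 11076 genes. In 13 members 1 pair lay wholly above the other. The labelled pair was above in 11 (Ndrg1, Slc16a3, Plod2, Bnip3, Egln1, Slc40a1, Ube2b, Ogt, Rsrp1, Pde7a and Medag), and the pair of RNA276 and RNA275 was above in Fscn1, an actin-bundling protein, and Lbh. At least 2 times higher were 9 members in the wildtype RNA than in RNA275 and 3 the other way round, where the shares over all genes were 0.695% and 1.85%. Likewise 8 were that much higher in truncated Egr3 than in RNA276 and 2 the other way round, where the shares over all genes were 3.85% and 3.01%. The oxygen-regulated members, grouped after their values were seen, had medians of 1.13 for truncated Egr3 minus RNA276 and 0.95 for wildtype minus RNA275. All 7 were higher in the wildtype RNA than in RNA275, Cited2 by little (349 against 338). RNA275 was the lowest RNA in them, as in 90 of the 153 members. The sarcomere and muscle metabolism members had medians of -0.02 and 0.07.

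None of the 153 members was on the 7 marker lists, the myotube list included. Members were 0.841% of all genes on the arrays. The longest marker list had 13 genes there, so the absence of members says little. Each of 10 myotube markers was above the floor in at least 1 RNA. Their summed signal was 22467 in the truncated-Egr3 RNA, 26110.5 in the wildtype RNA, 24917 in RNA276 and 23379 in RNA275. Fibroblast markers summed to 10030 in truncated Egr3, 10205 in wildtype, 9222 in RNA276 and 8356 in RNA275, with 3 of 10 (Lum, Pdgfra and Thy1) never above the floor. Smooth muscle and pericyte markers summed to 4819 in truncated Egr3, 6634 in wildtype, 5485 in RNA276 and 5860 in RNA275, lower in the first of each pair, and 3 of 7 were never above the floor. Macrophage markers summed to 465 in truncated Egr3, 496 in wildtype, 470.0 in RNA276 and 447 in RNA275. The defining macrophage genes Ptprc, Adgre1 and Cd68 and 8 of the other 10 macrophage markers were never above the floor, nor were 5 of 6 endothelial, 3 of 5 adipocyte and 2 of 4 Schwann and glial markers. The part of these cells in the result was not tested.

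Of the 20 pathway lists, 11 held a member and 9 held none, and 21 members stood on any of them. How many of all genes stood on a list was not counted. Members were 0.841% of all genes on the arrays. The longest list without a member had 26 genes there, so an empty list says little. Lists without a member were those of Egr and Nab genes, interferon response, immediate early genes, neuromuscular synapse, p53 targets, glycogen and glucose, lipid, glutathione and channel genes. The interferon list ran in opposite directions in the pairs, with medians of -2.41 for truncated Egr3 over wildtype and 1.62 for RNA276 over RNA275, a combination that the rule cannot select. Egr3 read 830 in truncated Egr3, 769 in wildtype, 2627 in RNA276 and 1454 in RNA275 by its type A probe set. By its type B probe set it read 1039 in truncated Egr3, 1420 in wildtype, 771 in RNA276 and 1203 in RNA275, so its probe sets disagree on both directions. Egr1 had ratios of 0.96 and 1.58, Nab2 of 0.72 and 0.77, and the brightest probe sets of Nab1 and Egr2 of 0.95 and 0.48 and of 0.79 and 0.57, the last with truncated Egr3 and RNA276 under the floor. Egr4 was under the floor in every RNA.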

How the data were processed

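Total RNA of mouse myotubes was measured in 8 samples, 4 RNAs on array types A and B. The deposited intensity values are linear, 1 per probe set. No software, normalization or genome build is named by the labels or files used here. The mean after trimming 2% from each end of the deposited values was 150.0 on all arrays, so the scale was kept. A shared mean removes any difference common to most genes. Type A had 20380 probe sets with 1 gene symbol and type B 14661; 20351 and 14486 were matched by gene number to RefSeq (GRCm38.p6), which gave current symbols. Probe sets with several symbols (691 and 245) or none (1555 and 7605) were left out.

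Groups came from the labels. The arrays of types A and B are different probe sets of the same RNA, not replicates, so no test across genes was run and the report counts ratios. Signals were floored (70 and 110) before ratios were taken, which compresses dim genes. The members, the gene lists and the 9 function groups were chosen with earlier results of these data known, and the function groups after the members' values were seen. Genes were named as the 15 members with the largest smaller ratio, members on a list, those nearest the threshold, Egr and Nab genes, and others for a known role. Promoters came from RefSeq (GRCm38.p6). The rule was tested on simulated data. Alternatives were other floors, ratios and scalings and other choices of probe set. The number of arrays limits the precision. Tables were made with pandas 2.3.3, scipy 1.17.1 and numpy 2.4.6 and plots with matplotlib 3.10.9, under Python 3.11.15.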

Additional observations from a re-analysis of the deposited data

How the results depend on the processing

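The 153 members became 189 with floors of 50 and 80, 120 with floors of 100 and 150, 158 with quantile normalization and 135 without probe sets prone to cross-hybridisation. The count was 166 as probe sets. The count of genes moved by more than 1.5 times under other settings: 834 with no floor (a minimum signal of 1) and 233 with equal medians. It was 569 at a ratio of 1.3 and 13 at a ratio of 2. With the brightest probe set of a gene chosen before the rule, from type A first, 87 genes were left. Of the 153, 131 remained with quantile normalization and 137 with equal medians. Requiring every measured probe set of a gene to be higher in both pairs, an alternative chosen after seeing the data, left 103. The 166 probe sets higher in both truncated Egr3 and RNA276 became 261 with equal medians, and the other combinations of direction stayed within 1.5 times under both scalings. Equal medians shifted the log2 ratio of truncated Egr3 to wildtype on type B by 0.15 and that of RNA276 to RNA275 on type A by 0.12. For the 77 members followed singly, 43 of 616 alternative log2 ratios moved by more than the technical SD, 34 of them with the higher floors. No paired analysis was possible because there is 1 RNA per label. Dim genes are limited by the floor, and the causes were not tested.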
